A study of Homo sapiens with 6 samples.

Results

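The genes described here are 31 genes of the NRF2 antioxidant response, chosen by symbol from the 53826 gene entries of the RNA-seq tables. NRF2 (NFE2L2) and its inhibitor KEAP1 are among the 31. NRF2 is a transcription factor that KEAP1 holds in the cytoplasm and marks for degradation. When KEAP1 is modified by electrophiles or inactivated by mutation, NRF2 accumulates, pairs with a small MAF protein and binds the antioxidant response element (ARE) in front of its target genes. These targets make glutathione, reduce thioredoxin, supply NADPH, store iron and reduce quinones and carbonyls. A549, a human lung adenocarcinoma cell line, is known to carry an inactivating change in KEAP1 and a constitutively active NRF2 program.

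RNA was sequenced from A549 cells with stable overexpression of GFP (A549-GFP, 3 libraries) and from A549 cells with stable overexpression of TIPARP (A549-TIPARP, 3 libraries). Both lines were made with a retroviral pMXs vector, which carried GFP in the control, and the sources used here do not say whether a line was a clone or a pool. TIPARP is a mono-ADP-ribosyltransferase induced through the aryl hydrocarbon receptor, and the comparison asks which transcripts differ when it is overexpressed. The libraries are numbered 1 to 3 by experiment, and since the labels do not say what was repeated in each, the p-values below measure the spread between these libraries, which may be in part technical.

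Levels are in TPM, a unit that scales reads by transcript length and by the library total, so that different genes can be compared. Read counts were not among the values, and neither sequencing depth nor counting error is known. The lowest value in the tables is 1 TPM. Values are given in the order of replicates 1, 2 and 3. TIPARP, from the vector and the endogenous gene together, was at 6.79, 11.4 and 3.68 TPM in A549-GFP cells and at 131, 90.5 and 123 TPM in A549-TIPARP cells, as the labels say. The keratins and other epithelial markers (6 genes) summed to between 10774 and 23392 TPM per library, with the lowest sum in A549-GFP replicate 2. Most of the sum was KRT8 and KRT18. CDH1 and KRT7 were instead highest in that library, at 142 and 2433 TPM. KRT19 was at 4.57, 2.54 and 5.36 TPM in A549-GFP cells and at 19.2, 19.0 and 10.9 TPM in A549-TIPARP cells. All 4 endothelial markers were at the lowest value of the tables in every library, as were 3 of the 5 fibroblast markers and 3 of the 4 leukocyte markers. The leukocyte marker above it was CD68, a lysosomal protein, which was highest in A549-GFP replicate 2 at 68.1 TPM. A549-GFP replicate 2 stood apart. Over all analysed genes it lay 0.54 (root mean square, log2 scale) from its line's mean, against 0.15 to 0.34 for the other 5 libraries. The part of these differences in the results below was not tested. For many of the genes below the difference without it is given too.

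The ARE is the sequence through which NRF2 acts, and its core, TGACNNNGC, was searched on both strands of the RefSeq promoter windows (build GRCh38.p14, 250 bases before to 50 bases after a start site). Of the 31 genes, 24 had a window and 10 of these, or 41.7%, held the core in at least 1 window, beside 16.1% of the 27305 genes with a window. CBR3, HMOX1, FTH1, PRDX1, GSR, SLC7A11 and TRIM16L had no entry. The sequences below show the site in genes of glutathione, thioredoxin, NADPH supply and detoxification, as 59 or 60 bases of the gene's own strand, 5′ to 3′. Capitals mark the core, which reads GCNNNGTCA where it lies on the opposite strand.

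GCLM: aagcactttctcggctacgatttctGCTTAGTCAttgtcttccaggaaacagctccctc
GPX2: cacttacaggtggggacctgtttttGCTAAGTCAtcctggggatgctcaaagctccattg
TXNRD1: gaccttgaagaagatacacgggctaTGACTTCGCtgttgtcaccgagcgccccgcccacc
PGD: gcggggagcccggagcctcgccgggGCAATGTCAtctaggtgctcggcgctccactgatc
ME1: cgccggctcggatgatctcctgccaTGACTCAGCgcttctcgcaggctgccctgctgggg
CBR1: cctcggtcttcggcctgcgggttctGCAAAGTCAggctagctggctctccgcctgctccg
EPHX1: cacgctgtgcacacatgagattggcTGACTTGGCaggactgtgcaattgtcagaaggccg

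The stretches lie at chr1:93909431-93909489 for GCLM (minus strand), chr14:64942833-64942892 for GPX2 (minus strand) and chr12:104215655-104215714 for TXNRD1 (plus strand). They lie at chr1:10398838-10398897 for PGD (plus strand), chr6:83431154-83431213 for ME1 (minus strand), chr21:36069840-36069899 for CBR1 (plus strand) and chr1:225825251-225825310 for EPHX1 (plus strand, at 1 of its 3 windows). In GENCODE 44 the last 26 bases shown for GCLM are annotated as 5′ UTR. The other stretches hold no UTR or coding base of their gene, and that of CBR1 lies in an exon of the antisense gene CBR1-AS1. The ME1 core overlaps TGACTCA, the AP-1 heptamer, as does a core of PIR. A match is a description of the letters and does not show binding. KEAP1 held 2 cores, 54 and 31 bases before its downstream start site, both within bases annotated as UTR or coding sequence of KEAP1. Besides the core shown, TXNRD1 held a core across its upstream start site. It held another 102 bases before its downstream start site, within its own annotated UTR or coding bases. NQO1 and SRXN1 held no core in these windows, which says only that these letters do not occur there. The median difference between the lines was -0.12 (log2 scale) for the 10 genes with a core and -0.10 for the 14 genes with a window and no core.

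All 31 genes were expressed in both lines, and most were among the most abundant transcripts of the cells. The lowest value of any of them was 4.65 TPM, and all 31 passed the filter of TPM above 2 in at least 1 library that 13181 entries passed. Their median level stood at percentile 96.0 of those entries. In every library 20 of the 31 genes were above 100 TPM. Ferritin led, with FTL, the light chain, at 12496 to 23859 TPM and FTH1, the iron-oxidising heavy chain, at 6847 to 10621 TPM. The next by level were PGD, GPX2, PRDX1, NQO1, TKT and TXN, at 824 to 1877 TPM. The lowest were FECH, which inserts iron into haem, at 12.6 to 19.6 TPM, and the carbonyl reductase CBR3 at 4.65 to 16.5 TPM.

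**Figure D1:**
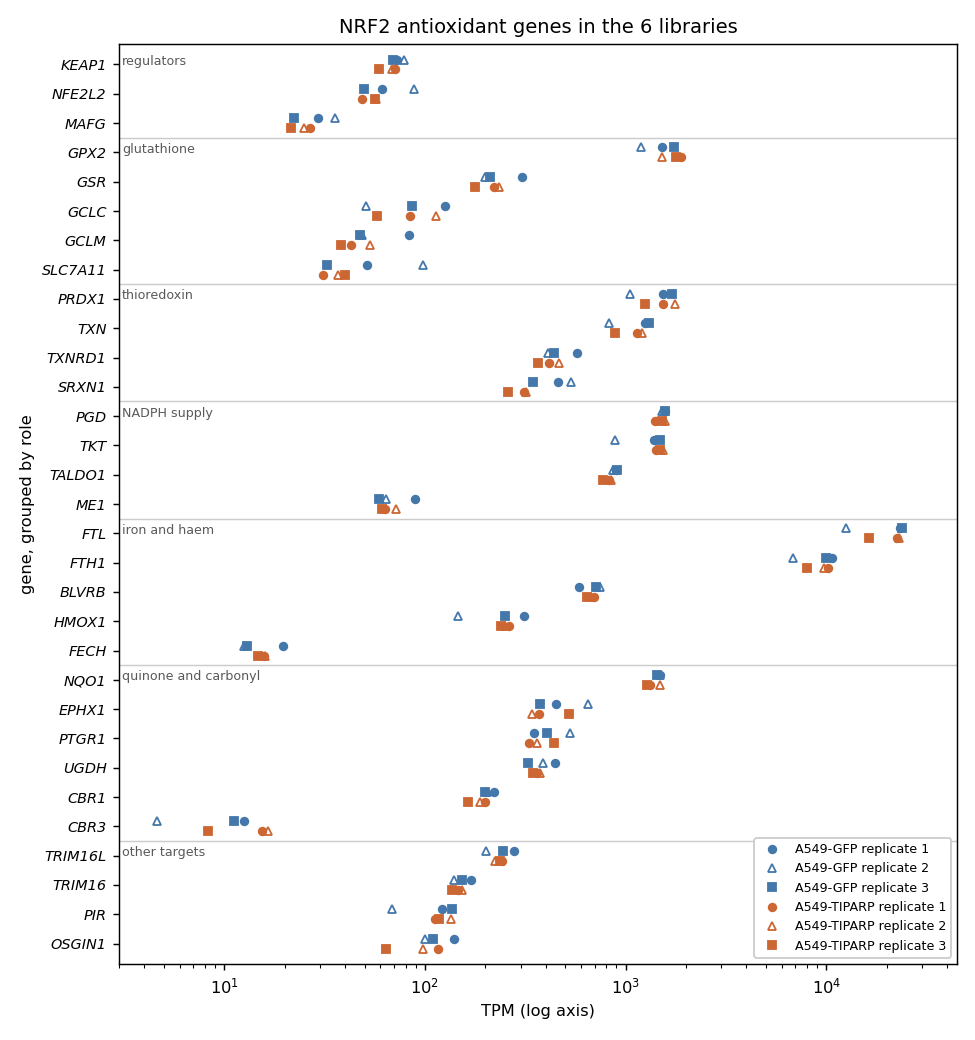
TPM (log axis) of each of the 31 genes, grouped by role, in the 3 A549-GFP libraries (blue) and the 3 A549-TIPARP libraries (orange), 1 symbol per library. Points of the lines lie side by side for nearly every gene, from FTL at 12496 TPM or more down to CBR3 at 16.5 TPM or less.

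Together the 31 genes took 4.85%, 3.20% and 4.82% of all TPM in A549-GFP cells and 4.63%, 4.68% and 3.74% in A549-TIPARP cells. The lines overlapped in this share. Most of it was ferritin, since FTL and FTH1 alone took 1.93% of TPM in A549-GFP replicate 2, 2.44% in A549-TIPARP replicate 3 and 3.26% to 3.39% in the other 4 libraries.

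**Figure D2:**
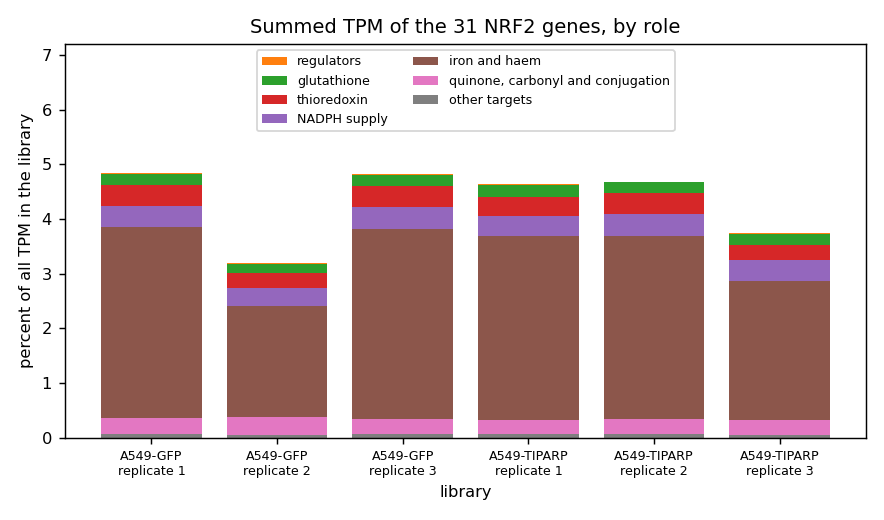
Percent of all TPM in each library taken by the 31 genes, stacked by role. The bars reach 3.20% to 4.85%, the iron and haem genes fill most of each bar, and A549-GFP replicate 2 and A549-TIPARP replicate 3 are the shortest.

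The lines were compared on log2(TPM + 1) with limma over all 13181 entries, and every difference below is A549-TIPARP minus A549-GFP on that scale. None of the 31 genes passed an adjusted p-value of 0.05 (Benjamini-Hochberg over all entries), beside 0.0152% of all entries. None was past 2-fold in either direction, beside 0.592% of entries higher and 0.152% lower. At an unadjusted p-value under 0.05 there was 1 of the 31 genes, SRXN1, which was lower, beside 3.85% of entries (0.88% lower and 2.97% higher). Without A549-GFP replicate 2 it was again SRXN1 alone, beside 10.5% of entries. Without A549-TIPARP replicate 3 there was none, beside 2.42% of entries, and the SRXN1 difference was -0.49. The largest differences were -0.60 for SLC7A11 and -0.58 for SRXN1 among lower genes and 0.51 for CBR3 among higher genes, and 20 of the 31 genes lay within 0.2 of no difference. The median size of the difference, sign aside, was 0.16 for the 31 genes, beside 0.17 over all entries. The 95% interval of the difference stayed inside 2-fold for 28 of the 31 genes, beside 79.3% of all entries, and inside 1.5-fold for 13, beside 21.1%. A change of 1.5-fold is therefore within the interval of 18 genes. The exceptions at 2-fold were SLC7A11, SRXN1 and CBR3. These are bulk values, in which fewer cells with a transcript and less of it per cell cannot be told apart.

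**Figure D3:**
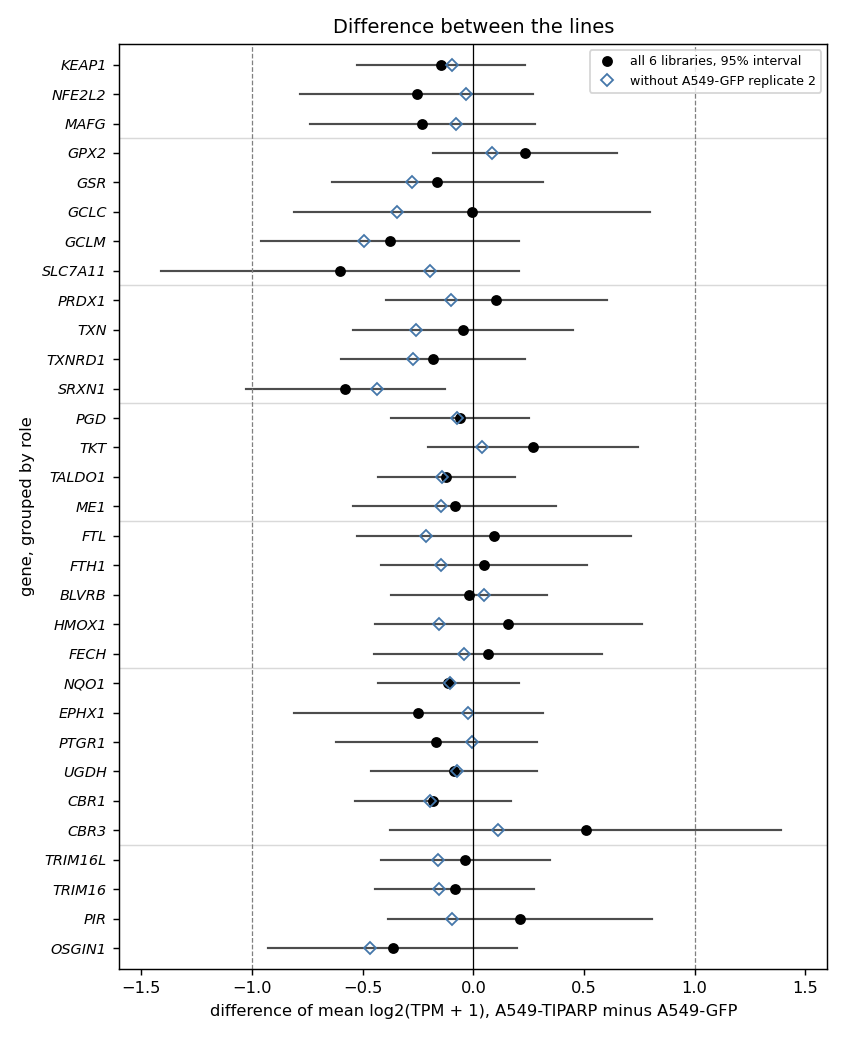
Difference of mean log2(TPM + 1) between the lines for each gene (black points, A549-TIPARP minus A549-GFP) with its 95% interval from limma (lines), and the same without A549-GFP replicate 2 (blue diamonds). Dashed lines mark 2-fold, and only the interval of SRXN1 lies wholly on one side of 0.

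The mean was lower in A549-TIPARP cells for 22 of the 31 genes, beside 60.4% of all entries, with a median difference of -0.085 beside -0.063. When libraries were rescaled to a common median ratio, 17 of the 31 were lower, beside 50.6%, with a median of -0.021. Without A549-GFP replicate 2 the count was 27, beside 42.6% of entries, and the median was -0.14, beside 0.042 over all entries. With both changes, an alternative added after the data were seen, 29 of the 31 were lower, beside 50.8%, with a median of -0.19 beside -0.0051. Without A549-GFP replicate 1 the count was 16, beside 59.4% of entries, with a median of -0.014 beside -0.062. The count of lower genes therefore moved between 16 and 29 with the library left out and the scaling, and no gene of the 31 was called in any of these fits. Leaving out 1 library moved the difference by over 1.5 times for 29 of the 31 genes, the exceptions being SRXN1 and TALDO1. A difference near 0 passes this ratio with a small shift, as for NQO1, from -0.11 to -0.18 without A549-TIPARP replicate 2. The share over all entries was not computed, so the count is no result about these genes.

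**Figure D4:**
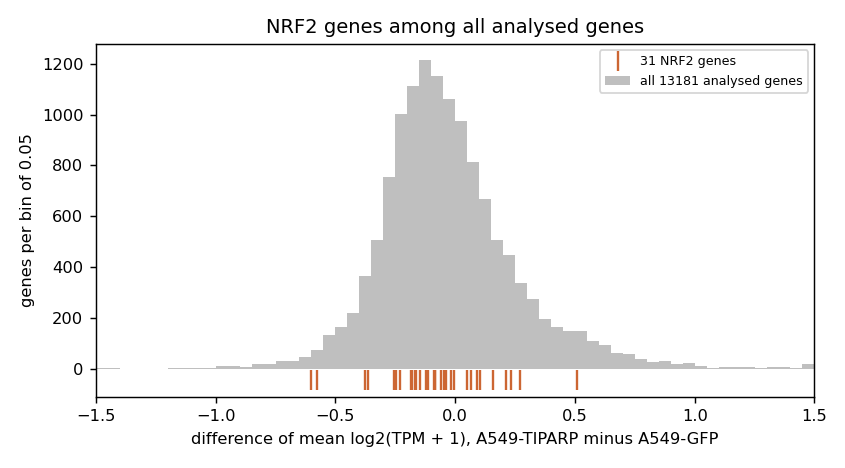
Number of analysed genes per bin of 0.05 in the difference of mean log2(TPM + 1) (grey, values beyond the axis gathered in the end bins), with the 31 NRF2 genes as orange ticks below. The ticks run from -0.60 to 0.51 and spread over the middle of the distribution.

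The lines did not overlap for 3 genes, SRXN1, CBR1 and TALDO1, all lower in A549-TIPARP cells, beside 8.91% of all entries (3.54% lower and 5.36% higher). After median-ratio rescaling SRXN1 alone remained, beside 12% of entries (5.11% lower). Without A549-GFP replicate 2 there were 8 such genes, all lower, beside 6.42% of entries lower and 21.2% higher. The 8 were SRXN1, CBR1, TALDO1, PGD, TXN, TRIM16, TRIM16L and FTL. With rescaling as well there were 13, all lower, beside 14.9% of entries lower.

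Of the regulators, NFE2L2 (NRF2 itself, chr2:177218667-177392756, minus strand, positions here and below from GENCODE 44 on hg38) was at 60.9, 88.1 and 49.8 TPM in A549-GFP cells. The A549-TIPARP values were 48.5, 56.7 and 56.4 TPM. A549-GFP replicate 2 was the highest of all and the other 5 libraries lay close together. The difference was -0.26 (standard error 0.23, 95% interval -0.78 to 0.27, limma adjusted p = 0.994). It was -0.034 without that library and -0.44 without A549-GFP replicate 3. NRF2 is controlled largely through protein stability, which transcript levels do not measure.

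KEAP1 (chr19:10486125-10503558, minus strand) was at 72.6, 78.4 and 69.0 TPM in A549-GFP cells and at 71.1, 68.8 and 58.9 TPM in A549-TIPARP cells. The lines overlapped within a narrow range, and the difference was -0.15 (standard error 0.17, 95% interval -0.53 to 0.23, limma adjusted p = 0.994). MAFG (chr17:81918270-81927735, minus strand), a small MAF partner of NRF2, was at 29.4, 35.6 and 22.3 TPM in A549-GFP cells and at 26.6, 24.9 and 21.4 TPM in A549-TIPARP cells. Its difference was -0.23 (standard error 0.22, 95% interval -0.74 to 0.28, limma adjusted p = 0.994), again with A549-GFP replicate 2 the highest. It was -0.077 without that library and -0.40 without A549-GFP replicate 3.

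Glutathione is made from cystine, which SLC7A11 imports, by a ligase of the catalytic subunit GCLC and the modifier GCLM. SLC7A11 (chr4:138164097-138242349, minus strand) was at 51.6, 97.3 and 32.5 TPM in A549-GFP cells, with replicate 2 the highest. The A549-TIPARP values were 31.03, 36.8 and 39.8 TPM, of which replicate 1 lay below the A549-GFP range and the others near its low end. The difference was -0.60 (standard error 0.35, 95% interval -1.41 to 0.21, limma adjusted p = 0.994). Without A549-GFP replicate 2 it was -0.19 and without A549-GFP replicate 3 it was -0.97, so either of these control libraries moved it by over 1.5 times, in opposite directions. The annotated antisense entry SLC7A11-AS1, which overlaps 8.97% of its exons, was at the lowest value in every library.

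GCLM (chr1:93885199-93909456, minus strand) was at 82.9, 48.6 and 47.4 TPM in A549-GFP cells and at 42.6, 53.1 and 38.0 TPM in A549-TIPARP cells. Here replicate 1 was the high control library. The difference was -0.38 (standard error 0.26, 95% interval -0.96 to 0.21, limma adjusted p = 0.994), and -0.12 without that library. GCLC (chr6:53497341-53616970, minus strand) ran from 126 TPM in A549-GFP replicate 1 to 50.9 TPM in replicate 2, with 86.4 TPM in replicate 3. In A549-TIPARP cells it was at 83.8, 113 and 58.0 TPM. Its difference of -0.0054 has a 95% interval of -0.81 to 0.80, so the spread within each line allows a change of up to about that size in either direction.

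The 2 enzymes that use and restore glutathione were more abundant. GPX2, an epithelial glutathione peroxidase, was at 1512, 1194 and 1743 TPM in A549-GFP cells and at 1877, 1519 and 1789 TPM in A549-TIPARP cells. The difference of 0.23 (95% interval -0.18 to 0.65) was the third highest of the 31, and it was 0.085 without A549-GFP replicate 2. GSR, which reduces oxidised glutathione, was at 305, 200 and 211 TPM in A549-GFP cells and at 221, 234 and 177 TPM in A549-TIPARP cells, with a difference of -0.16 (95% interval -0.64 to 0.31).

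The thioredoxin group held the gene with the lowest p-value of the 31. SRXN1, sulfiredoxin, repairs overoxidised peroxiredoxins and lies at chr20:646615-653200 on the minus strand. It was at 459, 536 and 345 TPM in A549-GFP cells and at 309.9, 317 and 258 TPM in A549-TIPARP cells. Every A549-TIPARP library was below every A549-GFP library, by a narrow margin against A549-GFP replicate 3. The mean log2 level was 8.78 ± 0.32 (SD, n = 3) against 8.20 ± 0.16 (SD, n = 3). The difference was -0.58 (standard error 0.20, 95% interval -1.03 to -0.13), or 33.1% lower. Its adjusted limma p-value over all entries was 0.988, so it was not called, and it ranked 236 of the 13181 entries by p-value. The difference was -0.44 without A549-GFP replicate 2 and -0.51 after rescaling. A gene annotated on the same strand over SRXN1 (ENSG00000270299) shares 90.6% of the 50-base stretches of its transcript, and how the authors' software assigned such reads is not stated.

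TXN, thioredoxin, was at 1243, 824 and 1313 TPM in A549-GFP cells and at 1135, 1212 and 886 TPM in A549-TIPARP cells. TXNRD1, the selenoprotein that reduces it with NADPH, was at 572, 412 and 437 TPM in A549-GFP cells and at 413, 468 and 366 TPM in A549-TIPARP cells. PRDX1, the peroxiredoxin that TXN recharges, was at 1529, 1050 and 1698 TPM in A549-GFP cells and at 1535, 1770 and 1247 TPM in A549-TIPARP cells. All 3 overlapped between the lines, with differences of -0.048, -0.18 and 0.10. The TXNRD1 difference was -0.038 without A549-GFP replicate 1, its highest library. For TXN and PRDX1 A549-GFP replicate 2 was the lowest library and A549-TIPARP replicate 3 was the lowest of its line.

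In the group named for NADPH supply, PGD makes NADPH in the pentose phosphate pathway, to which TALDO1 and TKT also belong. PGD stood at 1571, 1524 and 1574 TPM in A549-GFP cells and at 1399, 1564 and 1522 TPM in A549-TIPARP cells. Its difference was -0.059 with a 95% interval of -0.37 to 0.25. TALDO1, transaldolase, was at 898, 864 and 902 TPM in A549-GFP cells and at 830, 846 and 774 TPM in A549-TIPARP cells. These libraries did not overlap, and the difference was -0.12 (95% interval -0.43 to 0.19, limma adjusted p = 0.994). TKT, transketolase, was at 1384, 890 and 1492 TPM in A549-GFP cells and at 1412, 1532 and 1488 TPM in A549-TIPARP cells. Its difference of 0.27 became 0.039 without A549-GFP replicate 2, the single low library. ME1, the cytosolic malic enzyme, was at 88.8, 63.9 and 58.9 TPM against 63.2, 72.0 and 61.4 TPM, a difference of -0.085.

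Of the iron and haem genes, FTL (chr19:48965309-48966879, plus strand) was at 23254, 12496 and 23859 TPM in A549-GFP cells and at 22473, 22887 and 16346 TPM in A549-TIPARP cells. FTH1 (chr11:61959718-61967634, minus strand) was at 10621, 6847 and 9915 TPM in A549-GFP cells and at 10182, 9749 and 8025 TPM in A549-TIPARP cells. Both chains were low in A549-GFP replicate 2 and, within its line, in A549-TIPARP replicate 3. Their differences were 0.093 (95% interval -0.53 to 0.71) and 0.048 (95% interval -0.42 to 0.51), and without A549-GFP replicate 2 they were -0.21 and -0.15. Ferritin has many processed pseudogenes, and 41.3% of the 50-base stretches of the FTH1 transcript and 18.5% of those of FTL occur in other annotated genes. Of 45 ferritin pseudogene entries in the tables, 44 were at the lowest value in every library, and the exception, FTH1P3, was at 3.03 to 5.33 TPM.

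HMOX1, which opens haem and releases its iron, was at 313, 146 and 251 TPM in A549-GFP cells and at 264, 252 and 241 TPM in A549-TIPARP cells. Its difference of 0.16 (95% interval -0.45 to 0.76) became -0.16 without A549-GFP replicate 2. BLVRB, a biliverdin and flavin reductase, was at 586, 744 and 714 TPM against 698, 671 and 640 TPM, a difference of -0.018. FECH was at 19.6, 12.6 and 13.0 TPM against 15.8, 16.01 and 14.7 TPM, a difference of 0.066.

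NQO1, the 2-electron quinone reductase most often read as a measure of NRF2 activity, was at 1487, 1486 and 1434 TPM in A549-GFP cells. The A549-TIPARP values were 1321, 1482 and 1277 TPM, with replicate 2 inside the range of the control. Its difference was -0.11 (standard error 0.14, 95% interval -0.43 to 0.21, limma adjusted p = 0.994). The 3 control values lay close together, A549-GFP replicate 2 included.

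The carbonyl reductases CBR1 and CBR3, neighbours on chromosome 21, differed in level and in the sign of their difference. CBR1 was at 220.0, 205 and 200.2 TPM in A549-GFP cells and at 199, 189 and 164 TPM in A549-TIPARP cells. The lines did not overlap, by less than 1 TPM, and the difference was -0.18 (95% interval -0.54 to 0.17, limma adjusted p = 0.994). Of its 50-base stretches, 28.6% occur in another annotated gene on the same strand (ENSG00000289001). CBR3 (chr21:36135079-36146562, plus strand) was at 12.5, 4.65 and 11.2 TPM in A549-GFP cells and at 15.5, 16.5 and 8.30 TPM in A549-TIPARP cells. A549-GFP replicate 2 and A549-TIPARP replicate 3 were the lowest of their lines. The difference was 0.51 (standard error 0.39, 95% interval -0.38 to 1.39, limma adjusted p = 0.994), and 0.11 without A549-GFP replicate 2. CBR3-AS1 overlaps 71.1% of the CBR3 exons on the opposite strand and was at 43.97 to 60.4 TPM, above CBR3 in every library. The library kit keeps strand, but whether the counting used it is not stated, so the CBR3 values are uncertain.

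EPHX1, the microsomal epoxide hydrolase, was at 451, 653 and 374 TPM in A549-GFP cells and at 370.0, 342 and 520.4 TPM in A549-TIPARP cells. PTGR1, a reductase of prostaglandins and other enones, was at 350, 526 and 404 TPM against 329, 362 and 440.3 TPM. Both were highest in A549-GFP replicate 2 and, within the line, in A549-TIPARP replicate 3, and their differences of -0.25 and -0.17 became -0.026 and -0.0066 without A549-GFP replicate 2. UGDH, which makes the UDP-glucuronate used in conjugation, was at 442, 389 and 324 TPM against 361, 373 and 346 TPM, a difference of -0.087.

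OSGIN1, an oxidative stress growth inhibitor, was at 140.3, 100.3 and 110.0 TPM in A549-GFP cells and at 116, 97.4 and 63.8 TPM in A549-TIPARP cells. The lines overlapped and A549-TIPARP replicate 3 was the lowest library. The difference was -0.37 (standard error 0.25, 95% interval -0.93 to 0.20, limma adjusted p = 0.994), and -0.12 without that library. With A549-GFP replicate 1 left out it was -0.23, and with A549-GFP replicate 2 left out -0.47. PIR, the iron-binding protein pirin, was at 122, 68.2 and 137 TPM against 113, 134 and 118 TPM, and its difference of 0.21 became -0.095 without A549-GFP replicate 2. TRIM16, an E3 ubiquitin ligase, was at 169, 139 and 154 TPM against 146, 152 and 137 TPM, and its paralog TRIM16L at 278, 202 and 246 TPM against 242, 224 and 236 TPM. Of the 50-base stretches of the TRIM16L transcript, 55.7% also occur in TRIM16, so the split between the 2 is uncertain. Of those of TRIM16, 57.6% occur in other annotated genes. The largest share, 38.7%, is with ENSG00000251537 on the same strand, so the TRIM16 level is uncertain for that reason too.

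A549-GFP replicate 2 was the highest or the lowest of the 6 libraries for 20 of the 31 genes, with 8 highest and 12 lowest. Over all analysed entries it was the highest for 52.0% and the lowest for 13.1%. Against the mean of the other A549-GFP libraries it stood lowest for CBR3 (-1.19, log2 scale), GCLC (-1.02), HMOX1 (-0.94), PIR (-0.91) and FTL (-0.91). It stood highest for SLC7A11 (1.23), NFE2L2 (0.67) and EPHX1 (0.67). Genes of the program thus deviated in both directions in that library. A549-TIPARP replicate 3 deviated from its own line in the same direction for 21 of the 31 genes, with a correlation of r = 0.62 over the 31 genes (a description, since the genes of a library are not independent). Over all analysed entries the same correlation was also 0.62, so it is not particular to these genes. The spread within lines was wider in the control, with a median SD of 0.33 in A549-GFP and 0.15 in A549-TIPARP cells, beside 0.34 and 0.17 over all entries.

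**Figure D5:**
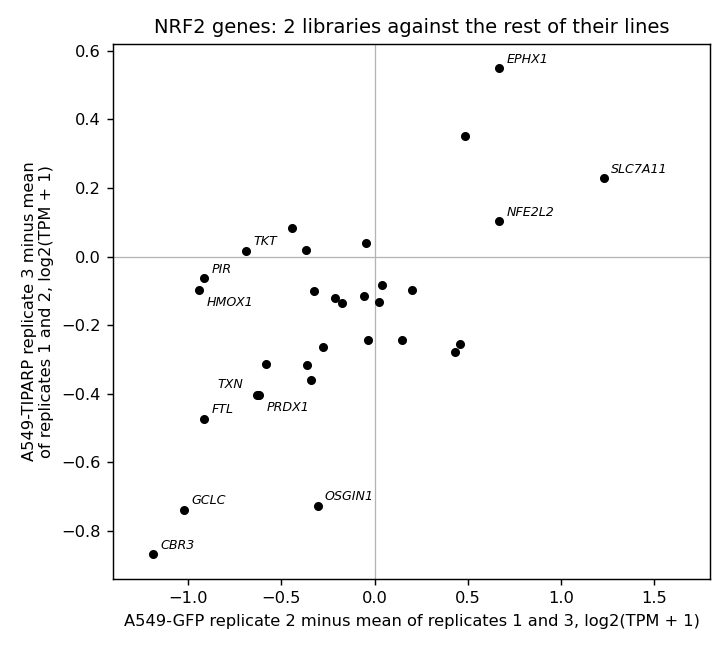
Each point is 1 of the 31 genes, with its deviation in A549-GFP replicate 2 from the mean of the other A549-GFP libraries (horizontal axis) and in A549-TIPARP replicate 3 from the mean of the other A549-TIPARP libraries (vertical axis), both on log2(TPM + 1). CBR3, GCLC and FTL lie low in both libraries, and EPHX1 and SLC7A11 lie high in both.

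The wider pathway was read from a further list of 35 genes, of which 33 passed the filter. They hold other regulators (small MAFs, BACH1, CUL3, the p62 gene SQSTM1), transporters, aldo-keto reductases and further glutathione and NADPH genes. None was called, beside 0.0152% of entries, and with all 6 libraries none was past 2-fold, beside 0.592% higher and 0.152% lower. With 1 library left out, MAFF passed 2-fold lower (-1.19 without A549-GFP replicate 1 and -1.02 without replicate 3). In these fits 81 and 107 of the 13181 entries passed 2-fold lower. TXNIP, an inhibitor of thioredoxin named after its values were seen, passed 2-fold higher (1.45) without A549-GFP replicate 2, beside 167 of the 13181 entries. That library was the one in which TXNIP was highest, at 75.03 TPM. The mean was lower in A549-TIPARP cells for 25 of the 33, beside 60.4% of entries, with a median of -0.16 beside -0.063. Without A549-GFP replicate 2 the median was -0.071, beside 0.042 over all entries. After median-ratio rescaling 21 of the 33 were lower, beside 50.6%. The genes under an unadjusted p-value of 0.05 were MAFK and SLC3A2, both lower, beside 3.85% of entries (0.88% lower). Their number ran from 1 to 5 with a library left out, with 5 beside 8.23% of entries without A549-GFP replicate 3.

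MAFK, a small MAF that pairs with NRF2 or with the repressor BACH1, was at 137, 186 and 176 TPM in A549-GFP cells and at 98.5, 124 and 100.1 TPM in A549-TIPARP cells. The lines did not overlap. The difference was -0.63 (standard error 0.19, 95% interval -1.05 to -0.20), or 35.2% lower, with an adjusted limma p-value over all entries of 0.856. It was -0.54 without A549-GFP replicate 2 and -0.56 after rescaling. SLC3A2, the heavy chain that carries SLC7A11 to the membrane, was at 585, 635 and 508 TPM against 485, 454 and 358 TPM. Its difference was -0.42 (standard error 0.17, 95% interval -0.82 to -0.019, limma adjusted p = 0.994), and -0.35 without A549-GFP replicate 2, where its unadjusted p-value was above 0.05.

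The largest differences of the list were those of MAFF (-0.72), MAFK and UGT1A6 (-0.48). MAFF, another small MAF, was at 4.496, 29.4 and 5.90 TPM in A549-GFP cells and at 5.01, 5.38 and 5.69 TPM in A549-TIPARP cells. Its difference rests on A549-GFP replicate 2 and was 0.045 without it. UGT1A6, a glucuronosyltransferase, was near the limit at 1.17 to 3.93 TPM. Of the 7 genes of the list for which the lines did not overlap, all lower in A549-TIPARP cells beside 3.54% of entries, the most abundant was AKR1B10, an aldo-keto reductase (singled out after its values were seen). It was at 7637, 5621 and 6749 TPM in A549-GFP cells and at 5397, 5539 and 4938 TPM in A549-TIPARP cells, a difference of -0.32 (95% interval -0.70 to 0.048, limma adjusted p = 0.994). After rescaling its lines overlapped and its difference was -0.26. The lines then did not overlap for 3 of the 33 genes, all lower, beside 5.11% of entries lower. Without A549-GFP replicate 2 there were 13 such genes, 8 lower and 5 higher, beside 6.42% of entries lower and 21.2% higher. Without A549-GFP replicate 3 there were 15, all lower, beside 3103 of the 13181 entries lower.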

How the data were processed

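The authors prepared stranded mRNA libraries, sequenced paired-end reads, aligned them to the hg38 transcriptome with Strand NGS at default parameters and deposited log2 TPM values, 1 table for each library, with 53826 entries and no counts. The annotation, the strand setting and the treatment of multi-mapping reads are not given in the sources used here. The deposited log2 values were turned back to TPM, entries with TPM above 2 in at least 1 of 6 libraries were kept, as in the study, and log2(TPM + 1) was fitted with limma 3.58.1 (R 4.3.3), with a trended prior variance and without a block. The pseudocount of 1 understates differences of low genes. Adjustment was by Benjamini-Hochberg over all kept entries. Groups and replicate numbers came from the sample titles. The 31 genes, the further list and the tests were chosen with earlier results of these data known. All 31 genes are described, with full statistics for NFE2L2, KEAP1, MAFG, the 5 largest differences and genes with an unadjusted p-value under 0.05. Of the further list, the 3 largest differences and genes under that p-value are named. Alternatives were a pseudocount of 0.1, no pseudocount, other filters, median-ratio rescaling, no variance trend, the replicate block, arithmetic means and each library left out. Gene models and shared 50-base stretches are from GENCODE 44, and promoters from RefSeq (GRCh38.p14, the same assembly as hg38). Protein identities of paralogs were planned and were not computed.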

Additional observations from a re-analysis of the deposited data

How the results depend on the processing

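Depth is unknown, and 3 libraries per line limit the precision. No gene of the 31 had an adjusted p-value under 0.05 in any alternative fitted with limma (lowest 0.354), and none passed 2-fold. TIPARP kept its difference of 3.90, with an adjusted p-value of 0.0125, but 0.0965 with no filter and 0.513 with the replicate block. It ran from 3.54 to 4.24 with each library left out, with adjusted p-values of 0.0331 to 0.192. With the replicate block, SRXN1 remained the 1 gene of the 31 under an unadjusted p-value of 0.05, beside 3.14% of all entries. The block is reported here alone. Deviations of same-numbered libraries correlated at 0.45, -0.52 and -0.38. The deviations within a line depend on each other, so these correlations cannot decide whether same-numbered libraries were paired. The number of genes under that unadjusted p-value ran from 0 (without A549-TIPARP replicate 3, beside 2.42%) to 2 (without A549-GFP replicate 3, where SLC7A11 joined, beside 8.23%) with each library left out, and was 2 without A549-GFP replicate 2 after rescaling, where GCLM joined (beside 10.4%), an alternative chosen after the data were seen. Genes with no overlap of the lines numbered 1 after rescaling (beside 12% of all entries), 5 to 11 with a library left out (beside 11.7% to 30.7%, with 11 beside 30.7%), and 13 without A549-GFP replicate 2 after rescaling (beside 31.4%). The count of all entries past 2-fold (78 higher, 20 lower) was 175 and 46 with a pseudocount of 0.1 and 202 and 57 with the deposited log2 values, and the count under an unadjusted p-value of 0.05 went from 508 to 786 after rescaling. The median of the further list ran from -0.30 to -0.071 with a library left out.

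The sign changed after median-ratio rescaling for GCLC (0.058), TXN (0.018), PGD (0.0061), BLVRB (0.047) and TRIM16L (0.029). With each library left out, values ran across 0 for GCLC (-0.35 to 0.30), GSR (-0.28 to 0.025), TXN (-0.26 to 0.087), PRDX1 (-0.10 to 0.25), ME1 (-0.20 to 0.090), FTL (-0.21 to 0.25), FTH1 (-0.15 to 0.17), HMOX1 (-0.16 to 0.39), BLVRB (-0.12 to 0.048), FECH (-0.042 to 0.26), PIR (-0.095 to 0.40), UGDH (-0.20 to 0.019), TRIM16L (-0.16 to 0.069) and MAFF (-1.19 to 0.045). Without A549-GFP replicate 2 after rescaling, the sign changed for PRDX1 (-0.15), TKT (-0.013), FTL (-0.26), FTH1 (-0.20), HMOX1 (-0.21), FECH (-0.091) and PIR (-0.15). The cause was not tested.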
